A study of Homo sapiens with 30 samples.

Results

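8 genes linked to the degrader in this study were followed through the series. VHL, CUL2, ELOB, ELOC and RBX1 encode the subunits of the VHL ubiquitin ligase, which the degrader recruits. FKBP1A encodes FKBP12, and HIF1A and EPAS1 encode the ligase's best known substrates. The 8 genes were chosen by gene symbol. All 8 were among the 61578 genes of the count tables and among the 19982 genes that could be tested. The 30 poly(A) RNA-seq libraries form 15 groups of 2 and all carry the label A549, a cell line from a human lung adenocarcinoma. In the Degron line the endogenous RPB1, the largest subunit of RNA polymerase II, carries a degron, and treated Degron cells had received 100 nM dTAGV-1 for 12 h. The WT, Y1F, S2A, T4V, S5A and S7A lines share that degron and also hold an RPB1 complement that doxycycline induces, with a wild-type C-terminal domain or one mutated at the named heptad residue. Treated cells of these 6 lines had received 2 µg/mL doxycycline for 24 h and then 100 nM dTAGV-1 for 12 h, so treated WT and treated Degron cells also differ in doxycycline. Untreated cells of each of the 7 lines had received neither agent. The last group, Mock, was untreated and is labelled WT in genotype, with no degron named. The labels do not say whether a line was 1 clone or what promoter drives its complement. They also do not say that the 2 libraries of a group came from separate cultures, so p-values measure the spread between libraries, which may be technical.

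The VHL ligase is a cullin-RING ubiquitin ligase. VHL is the substrate receptor, elongin B and elongin C (ELOB, ELOC) join it to the scaffold cullin 2 (CUL2), and the RING protein RBX1 recruits the ubiquitin-charged enzyme. Its usual substrates are the alpha subunits of the hypoxia-inducible factors, HIF-1 alpha (HIF1A) and HIF-2 alpha (EPAS1), which prolyl hydroxylases mark for it when oxygen is present. FKBP12 is a small prolyl isomerase that binds rapamycin and FK506, and a mutated form of it serves as the tag in the dTAG system. dTAGV-1 binds that tag at one end and VHL at the other, so that the tagged protein is ubiquitylated. Only mRNA was measured here, and neither the subunits' protein nor ligase activity was.

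Library totals were 10866089 to 17912802 counts. POLR2A, the gene of RPB1, had 411 and 689 CPM in treated Degron libraries, against 461 and 288 CPM in untreated ones, which overlap. In the 6 complement lines both treated libraries lay above both untreated ones, as in WT with 518 and 1020.0 CPM treated, against 302 and 289.7 CPM untreated. The degron acts on protein and complement reads were not told apart from endogenous ones, so these values do not check the depletion. The labelled cell type was checked against 20 A549 markers, and in the 28 libraries of the 7 lines the markers went against the label. Their summed level was 91.6 to 188 CPM (counts scaled by library size) in treated libraries and 85.6 to 158 CPM in untreated libraries of the lines, against 37469 to 37711 CPM in Mock. CEACAM6, a surface glycoprotein of A549 cells, was at 0 in all 28, and KRT7 and AKR1B10 stayed under 1 CPM there. CDKN2A, CDKN2B and MTAP, which lie in a deletion of A549, summed to 161 to 268 CPM in treated and 149 to 213 CPM in untreated libraries of the lines, against 0.410 to 0.479 CPM in Mock. Markers of kidney HEK293 or neuronal cells moved with treatment: summed over 8 genes they were at 180 to 1151 CPM in treated and 984 to 1848 CPM in untreated libraries of the lines, against 72.5 to 81.2 CPM in Mock. Of these, IRS4 stood at 50.7 to 1464 CPM in the lines, against 0.0958 to 0.102 CPM in Mock, while INA went the other way, at 0.0801 to 8.13 CPM in the lines, against 52.96 to 58.1 CPM in Mock, and WT1 and PAX2 overlapped Mock. Summed immune markers (7 genes) were at 7.25 to 29.2 CPM in treated and 1.63 to 5.27 CPM in untreated libraries of the lines, with 3 of 7 under 1 CPM in every treated library. Endothelial markers (6 genes) reached 2.75 to 8.57 CPM in treated and 0.691 to 3.25 CPM in untreated libraries. Fibroblast markers (7 genes) stood at 23.3 to 75.1 CPM in treated and 27.98 to 66.8 CPM in untreated libraries. The part of these markers in the results was not tested. In bulk RNA, fewer cells of a type and less RNA per cell cannot be told apart.

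Levels between genes are given in TPM, the deposited unit that divides counts by gene length. FKBP1A was the most abundant of the 8 mRNAs in all 15 groups, and CUL2 the least in all but untreated S2A cells, where EPAS1 was. FKBP1A ranged from 262 to 368 TPM in the 14 treated libraries of the lines and from 245 to 326 TPM in the 14 untreated ones, and was at 228 and 241 TPM in Mock. CUL2 ranged from 8.68 to 17.6 TPM in treated libraries and from 12.2 to 21.0 TPM in untreated ones, and was at 15.7 and 14.4 TPM in Mock. In the untreated WT line the order was FKBP1A (311 ± 1.38 TPM), RBX1 (116 ± 0.903), VHL (105 ± 1.96), HIF1A (88.7 ± 6.42), ELOB (78.3 ± 7.20), EPAS1 (48.4 ± 1.32), ELOC (34.6 ± 0.306) and CUL2 (18.4 ± 0.679; all SD, n = 2). HIF1A and ELOB, neighbours in that order, did not differ beyond their spread. In Mock the order was another: FKBP1A (234 ± 8.94 TPM) and HIF1A (230.4 ± 22.2) did not differ beyond their spread, and EPAS1 (159 ± 2.96) came next. RBX1 (61.6 ± 5.85) and ELOB (60.1 ± 7.41) also overlapped, followed by VHL (44.5 ± 1.61), ELOC (35.5 ± 1.89) and CUL2 (15.02 ± 0.904). The receptor VHL was thus above both HIF mRNAs in each of the 14 untreated libraries of the lines and below both in Mock.

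**Figure D1:**
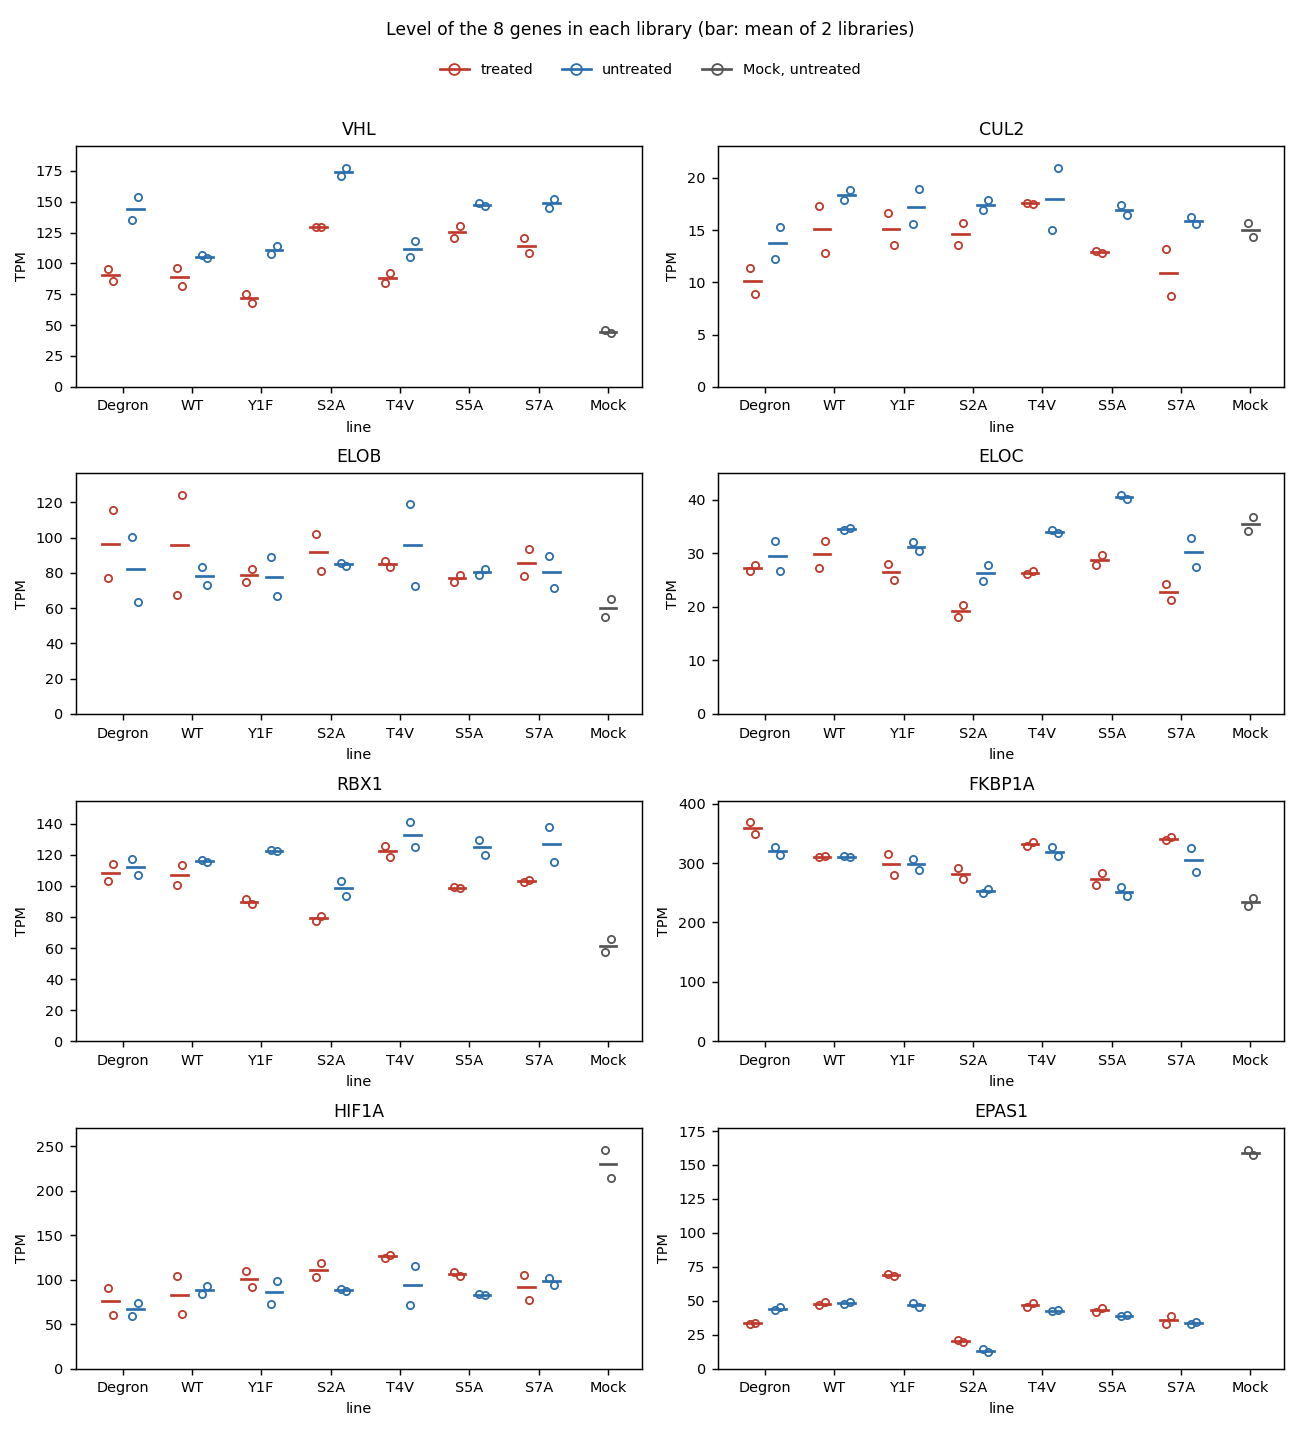
Level of each of the 8 genes in TPM (y axis, from 0) in every library of the 7 lines and Mock (x axis), treated left of untreated within each line; circles are single libraries and bars the mean of 2. Both treated VHL libraries lie below both untreated ones in all 7 lines, and HIF1A and EPAS1 are highest in Mock.

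The receptor gene VHL (chromosome 3, 10141008 to 10152220, plus strand, GRCh38) fell with treatment in 5 of 7 lines by edgeR and was below the untreated level in every library of all 7. It had 75.2 and 67.9 TPM in treated Y1F libraries, against 108 and 114 TPM in untreated Y1F libraries. In the Degron line it had 95.3 and 86.01 TPM in treated libraries, against 135 and 154 TPM in untreated libraries. These are the lines with the largest changes, and their 2 groups lie far apart. The S2A line, where VHL was highest, had 129.8 and 129.7 TPM in treated cells, against 171 and 177 TPM in untreated cells. In the S7A line the values were 121 and 108 TPM in treated cells, against 145 and 152 TPM in untreated cells. In the T4V line they were 84.2 and 91.9 TPM in treated cells, against 105 and 118 TPM in untreated cells. Even treated, these lines kept more VHL mRNA than Mock, at 45.6 and 43.4 TPM. The S5A line had 120.5 and 130.3 TPM treated, against 149 and 146 TPM untreated, and the WT line 96.04 and 81.5 TPM treated, against 107 and 104 TPM untreated.

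Scaled to the typical gene (TMM), the log2 fold change of VHL in edgeR's quasi-likelihood test was -0.64 ± 0.08 (adjusted p = 1.9e-06) in Y1F, -0.54 ± 0.08 (adjusted p = 1.2e-05) in Degron, -0.32 ± 0.08 (adjusted p = 0.0033) in S7A, -0.30 ± 0.08 (adjusted p = 0.0062) in S2A and -0.22 ± 0.08 (adjusted p = 0.048) in T4V. These correspond to 0.640, 0.686, 0.799, 0.815 and 0.861 times the untreated level. It missed the threshold of 0.05 by edgeR's test in WT, at -0.22 ± 0.08 (adjusted p = 0.13), and in S5A, at -0.18 ± 0.08 (adjusted p = 0.061). Both treated libraries lay below both untreated ones in all 7 lines on this scale too. The same held for 39.6% of all genes in S5A, 38.7% in S2A, 33.7% in Y1F, 31.4% in Degron, 30.6% in S7A, 27.5% in T4V and 18.7% in WT. The calls in Y1F, Degron and S2A held with any 1 of their libraries left out. The S7A call was lost without treated replicate 2, at -0.28 (adjusted p = 0.059) by edgeR. The T4V call was lost without untreated replicate 2, at -0.18 (adjusted p = 0.17), without treated replicate 1, at -0.23 (adjusted p = 0.17), and without treated replicate 2, at -0.30 (adjusted p = 0.077). With the replicate number as a block the T4V value was -0.22 (adjusted p = 0.058). Fitted on a line's own 4 libraries, the calls were lost in S7A, at -0.28 (adjusted p = 0.24), and T4V, at -0.22 (adjusted p = 0.37). Without a low-count filter they were lost in T4V, at -0.27 (adjusted p = 0.17), and in S2A, at -0.30 (adjusted p = 0.097), and over genes averaging at least 5 CPM in S2A, at -0.17 (adjusted p = 0.054) by edgeR. Without treated replicate 2 the S5A value, -0.29 (adjusted p = 0.044) by edgeR, passed.

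By edgeR, the scaffold, adaptor and RING mRNAs were called in 0 to 2 lines each. RBX1 (chromosome 22, 40951347 to 40973309, plus strand) fell in Y1F, where it had 91.4 and 88.6 TPM in treated Y1F libraries, against 123 and 122 TPM in untreated Y1F libraries. The change was -0.46 ± 0.13 (adjusted p = 0.0051) by edgeR and held with each library left out. In the S5A line RBX1 had 99.2 and 98.8 TPM treated, against 129.6 and 119.9 TPM untreated, groups that do not overlap, at -0.28 ± 0.12 (adjusted p = 0.067) by edgeR. It passed there without untreated replicate 2, at -0.40 (adjusted p = 0.037), and in S7A without untreated replicate 2, at -0.40 (adjusted p = 0.047), where all 4 libraries gave -0.24 ± 0.12 (adjusted p = 0.14) by edgeR.

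ELOC (chromosome 8, 73939169 to 73972287, minus strand), which binds both VHL and the cullin, fell in S5A and S7A. It had 27.9 and 29.7 TPM in treated S5A libraries, against 40.9 and 40.2 TPM in untreated S5A libraries, a change of -0.44 ± 0.13 (adjusted p = 0.0069) by edgeR that held with each library left out. In the S7A line it had 24.4 and 21.4 TPM treated, against 32.97 and 27.5 TPM untreated, at -0.35 ± 0.13 (adjusted p = 0.039) by edgeR. That call was lost without untreated replicate 1, at -0.19 (adjusted p = 0.40), and without treated replicate 2, at -0.29 (adjusted p = 0.19). It was also lost on the line's own 4 libraries, at -0.31 (adjusted p = 0.28), by DESeq2, at -0.30 (adjusted p = 0.073), and over genes averaging at least 5 CPM, at -0.22 (adjusted p = 0.17) by edgeR, where the S5A call was lost too, at -0.27 (adjusted p = 0.071). In the S2A line ELOC had 18.1 and 20.4 TPM treated, against 24.8 and 27.8 TPM untreated, with no overlap, at -0.32 ± 0.13 (adjusted p = 0.061) by edgeR.

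CUL2 (chromosome 10, 35008551 to 35090642, minus strand) fell in S7A, where it had 13.1 and 8.68 TPM in treated libraries, against 16.2 and 15.5 TPM in untreated libraries. The change of -0.49 ± 0.16 (adjusted p = 0.023) by edgeR rested on treated replicate 2: without that library it was -0.25 (adjusted p = 0.36), and without untreated replicate 1 it was -0.43 (adjusted p = 0.16). On the line's own 4 libraries the value was -0.45 (adjusted p = 0.17), and over genes averaging at least 5 CPM it was -0.37 (adjusted p = 0.087) by edgeR. Treated S7A replicate 2 also had the steepest slope of expression on transcript GC content of the 28 libraries, 0.432 log2 units per 10 percentage points. Over those 28 libraries CUL2 correlated with that slope at r = -0.75, ELOB at 0.62 and HIF1A at -0.65, as a description of libraries that share lines and treatments. The longest transcripts of CUL2 and HIF1A have 40.045% and 36.4% GC, and that of ELOB 61.1%.

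ELOB (chromosome 16, 2771414 to 2777297, minus strand) was called in 0 of 7 lines by edgeR, in 0 at an unadjusted p under 0.05 and in 0 by DESeq2. Its libraries were far apart within groups: treated WT cells had 67.6 and 124 TPM, against 83.4 and 73.3 TPM in untreated WT cells, and treated T4V cells had 86.5 and 83.6 TPM, against 119 and 72.8 TPM in untreated T4V cells. With standard errors of 0.29 on the log2 scale, changes of the size seen in VHL could not be told from the spread between its libraries. ELOB overlaps 1125 bases of SRRM2 on the opposite strand, a gene with a median of 11683 counts per library, and whether reads were counted by strand is not given in the sources used here, so its counts are uncertain.

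**Figure D2:**
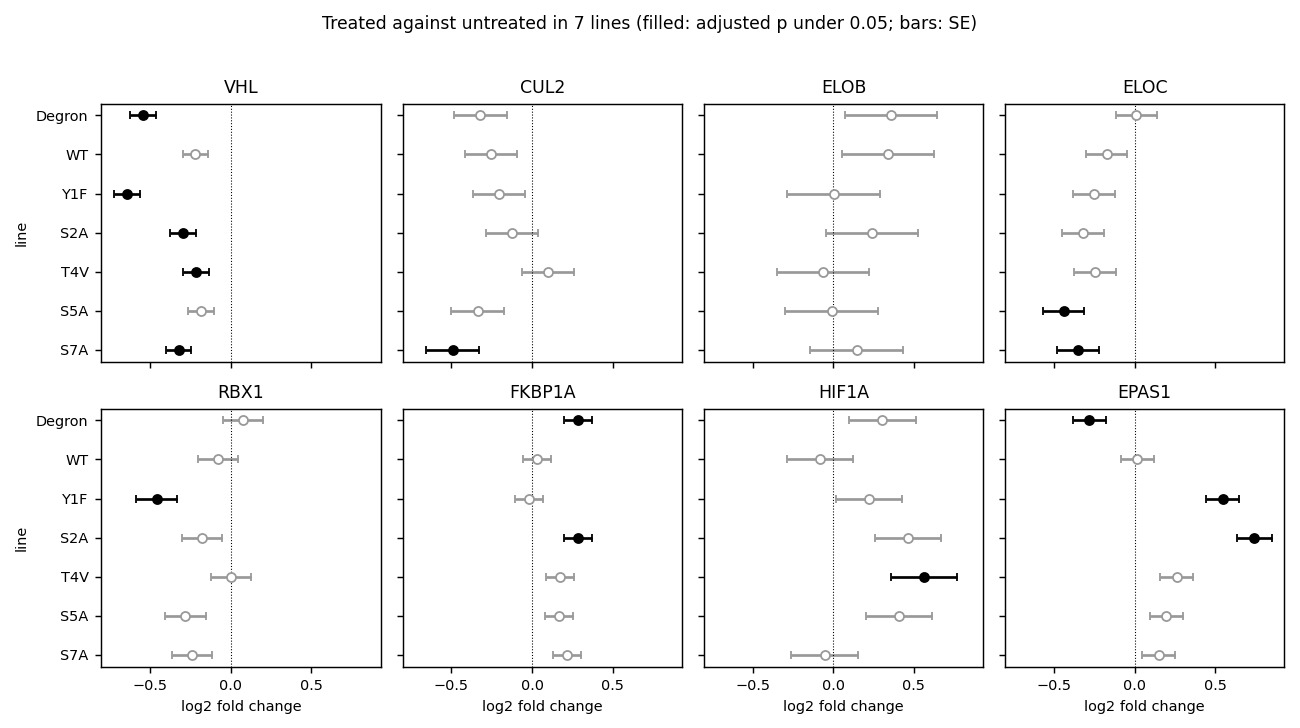
Log2 fold change of each gene, treated against untreated (x axis), in the 7 lines (y axis), from edgeR with TMM scaling; points are estimates, bars 1 SE, filled points passed an adjusted p of 0.05. VHL is left of 0 in all 7 lines, while EPAS1 is left of 0 in Degron (-0.28) and right of it in S2A (0.74).

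FKBP1A (chromosome 20, 1368978 to 1393172, minus strand) rose relative to the typical gene in 2 lines, a direction that turned under both other scalings described below. It had 368 and 349 TPM in treated Degron libraries, against 326 and 314 TPM in untreated Degron libraries. In the S2A line it had 292 and 272 TPM treated, against 250.3 and 256 TPM untreated. In both lines the groups do not overlap, and the share of all genes that lie higher in both treated libraries is not given here. The changes by edgeR were 0.29 ± 0.09 (adjusted p = 0.010) in Degron and 0.29 ± 0.09 (adjusted p = 0.014) in S2A, 1.22 times the untreated level in each. The Degron call was lost without untreated replicate 2 or either treated library (0.22 to 0.24, adjusted p = 0.083 to 0.13 by edgeR). The S2A call was lost without either untreated library or treated replicate 1 (0.20 to 0.28, adjusted p = 0.084 to 0.19 by edgeR). Without a low-count filter both were lost, at 0.25 (adjusted p = 0.094) in Degron and 0.28 (adjusted p = 0.051) in S2A, and on the line's own 4 libraries that in Degron, at 0.29 (adjusted p = 0.12) by edgeR, whereas DESeq2 called FKBP1A in 4 lines. In the S7A line FKBP1A had 338 and 344 TPM treated, against 325 and 284 TPM untreated, at 0.22 ± 0.09 (adjusted p = 0.058) by edgeR, and passed without untreated replicate 1, at 0.34 (adjusted p = 0.014). In the WT line FKBP1A had 309.9 and 312 TPM treated, against 312 and 309.8 TPM untreated. The tag is a mutated FKBP12, and reads of a tag sequence and of FKBP1A itself were not told apart. Of the genes that overlap FKBP1A, SDCBP2-AS1 on the opposite strand had 45 to 227 counts per library, and the near copy FKBP1C had 1005 counts over all 30 libraries, against 184412 for FKBP1A.

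Of the 2 substrate genes, EPAS1 (chromosome 2, 46293667 to 46386703, plus strand) fell in the Degron line and rose in Y1F and S2A, with rises that were called relative to the typical gene and not under the 2 other scalings described below. It had 69.6 and 68.5 TPM in treated Y1F libraries, against 48.2 and 45.3 TPM in untreated Y1F libraries. In the S2A line, where EPAS1 was lowest, it had 20.9 and 19.3 TPM treated, against 14.1 and 12.2 TPM untreated. In the Degron line it had 32.7 and 33.9 TPM treated, against 43.3 and 45.1 TPM untreated. The groups do not overlap in any of the 3. On the TMM scale, both treated libraries lay below both untreated ones for 31.4% of all genes in Degron. The share of genes lying above in Y1F and S2A is not given here. The changes by edgeR were 0.74 ± 0.11 (adjusted p = 2.2e-05) in S2A, 0.55 ± 0.10 (adjusted p = 1.9e-04) in Y1F and -0.28 ± 0.10 (adjusted p = 0.031) in Degron, or 1.67, 1.46 and 0.822 times the untreated level. The S2A and Y1F calls held with each library left out. The Degron call was lost without either untreated library or treated replicate 1 (-0.29 in each case, adjusted p = 0.077 to 0.099 by edgeR). It was lost as well without a low-count filter, at -0.32 (adjusted p = 0.076), over genes averaging at least 5 CPM, at -0.23 (adjusted p = 0.055), and on the line's own 4 libraries, at -0.28 (adjusted p = 0.21) by edgeR. DESeq2 called EPAS1 in 5 lines. In WT cells EPAS1 had 46.6 and 48.9 TPM treated, against 47.5 and 49.3 TPM untreated, overlapping groups. In T4V, S5A and S7A its change was 0.15 to 0.26 and did not pass (adjusted p = 0.060 to 0.28 by edgeR).

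HIF1A (chromosome 14, 61695513 to 61748259, plus strand) rose in T4V, where it had 124 and 128 TPM in treated libraries, against 71.4 and 116 TPM in untreated libraries. The change of 0.56 ± 0.21 (adjusted p = 0.044) by edgeR rested on untreated replicate 1: without it the value was 0.21 (adjusted p = 0.57). Without treated replicate 1 it was 0.50 (adjusted p = 0.21) and without treated replicate 2 it was 0.52 (adjusted p = 0.20). The call also ended with the replicate number as a block, at 0.56 (adjusted p = 0.052), on the line's own 4 libraries, at 0.56 (adjusted p = 0.083), and in a fit without Mock, at 0.52 (adjusted p = 0.081) by edgeR. Untreated T4V replicate 1 had a GC slope of 0.208, against -0.181 in the other untreated T4V library. In S2A HIF1A had 103 and 119 TPM treated, against 89.2 and 86.98 TPM untreated, and in S5A 109 and 104 TPM treated, against 83.9 and 82.4 TPM untreated. Neither pair of groups overlaps, and neither passed edgeR's test, at 0.46 ± 0.21 (adjusted p = 0.085) and 0.41 ± 0.21 (adjusted p = 0.11). Such a lack of overlap was not set against the share of all genes that show it. With a GC correction added after the data were seen, HIF1A passed in 6 of 7 lines (0.20 to 0.55, all but WT), in S7A at 0.21, where the uncorrected value was -0.05. The correction raised the share of all genes called as well. Over those 6 lines it was 44.8% in T4V to 62.1% in S5A, against 28.9% and 49.7% without the correction. Counts of HIF1A-AS1 and HIF1A-AS3, which overlap it on the opposite strand, were at most 27 per library.

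The promoter windows of the 2 HIF genes are shown because these genes differ most between the lines and Mock and because HIF targets are recognised by a core motif. RefSeq's table (GRCh38.p14) gave a window for 6 of the 8 members. Printed are the 250 bases before the RefSeq start, on the plus strand, at chr2:46297157-46297406 for EPAS1 and chr14:61695263-61695512 for HIF1A. Capitals mark the HIF core motif in its forms ACGTG or GCGTG, searched on both strands.
EPAS1: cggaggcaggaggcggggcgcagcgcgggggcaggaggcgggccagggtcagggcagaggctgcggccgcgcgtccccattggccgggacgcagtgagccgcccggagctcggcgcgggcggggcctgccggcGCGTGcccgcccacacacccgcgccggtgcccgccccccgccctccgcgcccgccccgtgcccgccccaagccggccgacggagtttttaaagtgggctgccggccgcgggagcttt
HIF1A: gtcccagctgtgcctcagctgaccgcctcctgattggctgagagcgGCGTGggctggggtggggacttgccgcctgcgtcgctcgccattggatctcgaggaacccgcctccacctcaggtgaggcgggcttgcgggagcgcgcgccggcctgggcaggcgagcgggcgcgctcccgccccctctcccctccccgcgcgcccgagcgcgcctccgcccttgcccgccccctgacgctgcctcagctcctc
Each window holds 1 GCGTG and 0 ACGTG. Of all 35116 windows of this length in the table, 32.2% hold GCGTG, 18.5% hold ACGTG and 43.2% hold either, so a match is common. GC content was 80.8% in the EPAS1 window and 75.6% in the HIF1A window.

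Set against all genes tested, the members were called at or below the share of all genes in most lines, and at 3 of 8 slightly above it in S2A and S7A. By edgeR 3 of 8 were called in Degron, where 44.4% of all genes were, 3 of 8 in Y1F (44%), 3 of 8 in S2A (35.1%), 2 of 8 in T4V (28.9%), 1 of 8 in S5A (49.7%) and 3 of 8 in S7A (34.9%). In WT 0 of 8 were called, against 4.93% of all genes, 1 of 8 (VHL) had an unadjusted p under 0.05, and DESeq2 called 0. The members' median log2 fold change was -0.15 in S7A to 0.06 in S2A, and that of all genes -0.01 in S2A to 0.05 in Degron.

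The question the design puts to a mutant is whether its change differs from that of the WT complement, which was tested as a difference of changes. In the Y1F line the fall of VHL was larger than the change in WT, by -0.43 ± 0.11 (adjusted p = 0.021) on the log2 scale in edgeR's test, and EPAS1 rose more, by 0.53 ± 0.14 (adjusted p = 0.023). These were 2 of 8 members, where 9.73% of all genes were called. In the S2A line EPAS1 rose more than in WT, by 0.73 ± 0.15 (adjusted p = 0.0046) by edgeR, 1 of 8 members where 7.53% of all genes were called. The S2A difference in EPAS1 held with each of the 8 libraries left out and was lost with scaling by mitochondrial mRNAs, at 0.45 (adjusted p = 0.16) by edgeR. That scaling also ended the Y1F difference in EPAS1, at 0.39 (adjusted p = 0.26) by edgeR. Without a low-count filter both Y1F differences were lost, at -0.42 (adjusted p = 0.23) for VHL and 0.54 (adjusted p = 0.086) for EPAS1 by edgeR. In the authors' deposited tables EPAS1 changed by -0.33 in Y1F, -0.20 in WT and 0.22 in S2A. There the Y1F value of EPAS1 lay below that of WT. VHL changed by -1.52 in Y1F and -0.46 in WT there, and differences between these values were not tested. Both Y1F differences were lost in edgeR's test without either untreated WT library, WT treated replicate 1, untreated Y1F replicate 2 or either treated Y1F library, and that of VHL also without untreated Y1F replicate 1, with values of -0.47 to -0.37 for VHL and 0.44 to 0.56 for EPAS1 (adjusted p = 0.052 to 0.10). In T4V, S5A and S7A 0 of 8 members differed from WT by edgeR (3.7%, 18.1% and 0.821% of all genes), with 1, 0 and 0 at an unadjusted p under 0.05 and 0 by DESeq2. Between WT and Degron 0 of 8 differed by edgeR (12% of all genes), 1 (VHL) had an unadjusted p under 0.05 and DESeq2 called that 1. The VHL difference there was 0.32 ± 0.11 (adjusted p = 0.066) by edgeR, and passed without treated WT replicate 2, at 0.39 (adjusted p = 0.04997). The HIF1A difference passed without treated WT replicate 1 in T4V, at 1.00 (adjusted p = 0.037), and in S5A, at 0.84 (adjusted p = 0.043), and in T4V also without untreated T4V replicate 2, at 0.97 (adjusted p = 0.048) by edgeR. All 5 mutants are set against the same 4 WT libraries.

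A change shared by most mRNAs cannot be seen with TMM scaling, which centres on the typical gene. Fly cells had been added to the samples, and fly reads were not used here. Scaling by the authors' own factors, solved from their deposited tables, moved the median of all genes by -0.93 in S5A, -0.85 in Y1F, -0.83 in Degron, -0.81 in S7A, -0.52 in S2A, -0.44 in T4V and -0.22 in WT on the log2 scale. Scaling by 13 mitochondrial mRNAs moved it by -0.72 in S5A to -0.20 in WT.

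VHL kept its negative sign in all 7 lines under all 3 scalings. Both other scalings moved every line downward, so a value negative with TMM scaling could not turn. The kept sign is therefore no check of the fall. With the authors' factors its log2 fold change in edgeR was -1.52 in Y1F, -1.40 in Degron, -1.14 in S5A, -1.14 in S7A, -0.82 in S2A, -0.68 in T4V and -0.46 in WT, all but WT past the threshold (adjusted p = 0.14 in WT). With mitochondrial scaling it was -1.03 to -0.44 and passed in all 7. FKBP1A had a negative sign in all 7 lines under both: -0.57 in Degron and -0.24 in S2A by the authors' factors, and -0.20 and -0.21 by the mitochondrial mRNAs. The rise of EPAS1 in S2A came to 0.22 with the authors' factors (adjusted p = 0.34 by edgeR) and 0.25 with mitochondrial scaling (adjusted p = 0.17). In Y1F it came to -0.33, with the sign turned, and to 0.19, neither past the threshold. The rise of HIF1A in T4V came to 0.08 and -0.01. The fall of EPAS1 in Degron was -1.14 and -0.77 and passed under both. That value was already negative with TMM scaling and could not turn, so it is no check of the fall either.

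The authors' deposited tables called lower, at an adjusted p under 0.05, 6 of 8 members in Degron (of all genes listed there with an adjusted p, 47.1%), 7 in Y1F (49.5%), 8 in S7A (47.8%), 8 in S5A (49%), 4 in S2A (39.7%), 2 in T4V (32.8%) and 0 in WT (0.0296%). Among the changes of VHL, FKBP1A, HIF1A and EPAS1 called with TMM scaling, the sign of FKBP1A turned in Degron and S2A under both other scalings. It turned for EPAS1 in Y1F with the authors' factors and for HIF1A in T4V with mitochondrial scaling. EPAS1 kept its sign in Degron and S2A under all 3 choices. In Degron that sign was already negative with TMM scaling, so a downward shift could not have turned it. VHL kept its sign too, which a downward shift could not have turned.

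**Figure D3:**
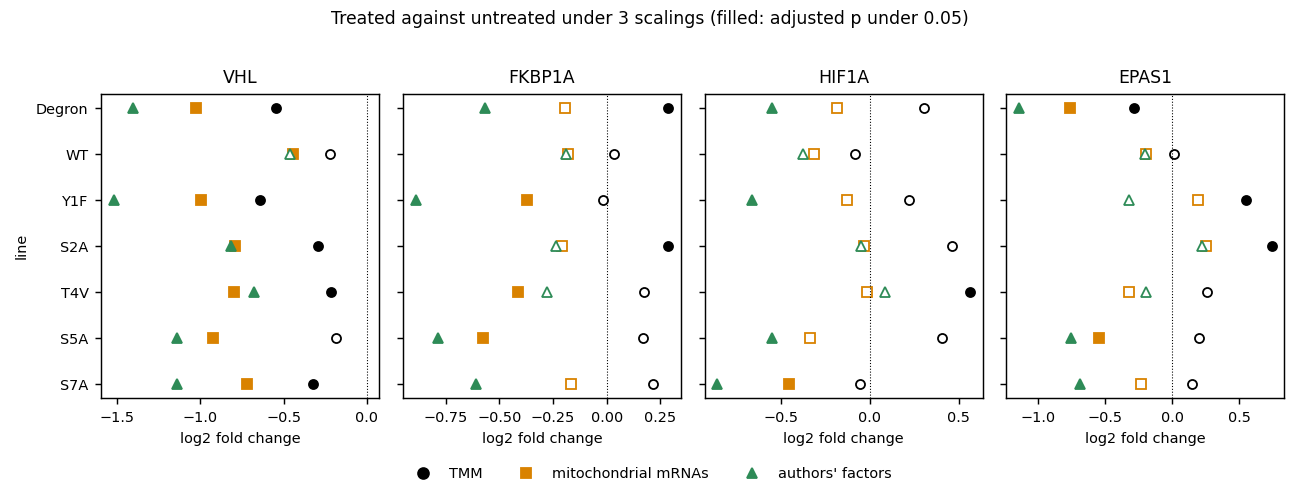
Log2 fold change, treated against untreated (x axis), of VHL, FKBP1A, HIF1A and EPAS1 in the 7 lines (y axis) under TMM scaling (circles), scaling by 13 mitochondrial mRNAs (squares) and the authors' factors (triangles), all by edgeR; filled symbols passed an adjusted p of 0.05. VHL stays left of 0 throughout, while FKBP1A in Degron lies at 0.29 by TMM, -0.57 by the authors' factors and -0.20 by mitochondrial mRNAs.

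A ratio of 2 genes within a library does not depend on how libraries are scaled, and was computed after the values had been seen, as a description. EPAS1 over VHL, in TPM, was 0.925 and 1.01 in treated Y1F libraries, against 0.447 and 0.398 in untreated ones. In S2A it was 0.161 and 0.149 in treated libraries, against 0.0826 and 0.0686 in untreated ones. In Degron it was 0.343 and 0.394 in treated libraries, against 0.321 and 0.293 in untreated ones. So the ratio was higher in treated cells even in the line where EPAS1 itself fell. In T4V it was 0.537 and 0.528 treated, against 0.400 and 0.365 untreated, and in S5A 0.347 and 0.340 treated, against 0.258 and 0.269 untreated. In S7A it was 0.272 and 0.359 treated, against 0.225 and 0.227 untreated, and in WT 0.485 and 0.6001 treated, against 0.444 and 0.474 untreated. Both treated libraries lay above both untreated ones in all 7 lines, the smallest gap being in WT. Every line stayed below Mock, at 3.53 and 3.62.

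FKBP1A over VHL likewise lay higher in both treated libraries in all 7 lines. It was 4.20 and 4.11 in treated Y1F cells, against 2.85 and 2.54 in untreated ones, and 2.18 and 2.18 in treated S5A cells, against 1.74 and 1.67 in untreated ones. HIF1A over VHL did so in 6 of 7, and in WT its groups overlapped. Such a ratio is set by its denominator as well: over VHL, both treated libraries lay above both untreated ones for 44.2% of all genes in WT, 46.1% in T4V, 49.7% in S7A, 50.4% in S5A, 53.4% in S2A, 63.3% in Degron and 71.3% in Y1F. Within the ligase, RBX1 over CUL2 overlapped between treated and untreated libraries in 6 of 7 lines and lay higher in both treated libraries in 1. VHL over CUL2 was lower in both treated libraries in 4 lines and higher in 1, ELOB over ELOC was higher in 4, and EPAS1 over HIF1A was lower in 2 and higher in 1. The share of all genes that separate in this way over CUL2, ELOC or HIF1A was not computed. These counts therefore cannot be read as particular to these genes.

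**Figure D4:**
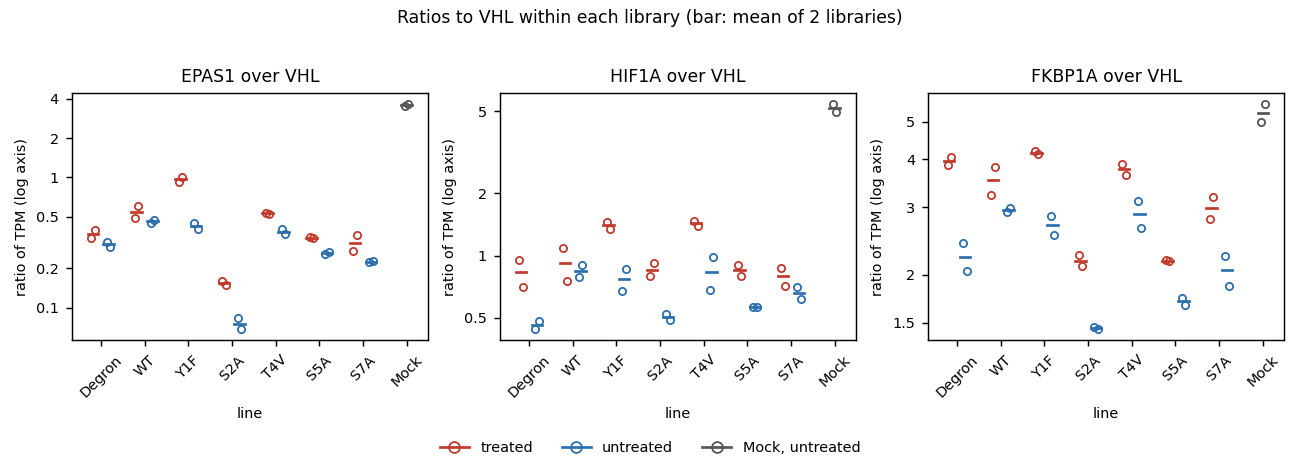
Ratio of EPAS1, HIF1A and FKBP1A to VHL in TPM (y axis, log scale) in every library of the 7 lines and Mock (x axis), treated left of untreated; circles are libraries and bars the mean of 2. EPAS1 over VHL reaches 0.925 and 1.01 in treated Y1F libraries, and Mock lies above all at 3.53 and 3.62.

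The other genes of the pathway were taken from lists by pathway, and counts are over edgeR calls with TMM scaling, to be read against the shares of all genes called in each line given above. Among 23 genes of neddylation and the COP9 signalosome, which switch cullins on and off by adding and removing NEDD8, 7 fell and 4 rose in Degron, 8 fell and 3 rose in Y1F, 6 fell and 3 rose in S2A, 6 fell and 4 rose in T4V, 10 fell and 3 rose in S5A and 11 fell and 3 rose in S7A. In WT 1 fell: DCUN1D5, a co-factor of cullin neddylation, which fell in all 7 lines. Its change by edgeR was -1.58 ± 0.11 (adjusted p = 3.8e-10) in S5A and -0.43 ± 0.11 (adjusted p = 0.019) in WT. DCUN1D4, of the same family, fell in 6 lines, -1.08 ± 0.19 (adjusted p = 1.0e-04) in Degron. DCUN1D3 rose in 6 lines, 0.95 ± 0.13 (adjusted p = 8.1e-06) in Degron by edgeR, as did the signalosome subunit COPS8, 0.86 ± 0.11 (adjusted p = 2.0e-06) in S5A.

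Among 9 enzymes that hand ubiquitin to cullin ligases, 5 fell and 1 rose in Degron, 6 fell and 1 rose in Y1F, 4 fell and 2 rose in S2A, 2 fell and 1 rose in T4V, 5 fell and 1 rose in S5A and 4 fell in S7A. UBE2R2, which extends ubiquitin chains on cullin ligases, fell in 5 lines, -1.35 ± 0.09 (adjusted p = 4.0e-10) in Degron by edgeR, and was at 0.00 ± 0.09 (adjusted p = 0.99) in T4V. UBE2D2 also fell in 5 lines, -0.93 ± 0.10 (adjusted p = 1.8e-07) in Degron, whereas its relative UBE2D1 rose in 5, 0.93 ± 0.21 (adjusted p = 9.7e-04) in Degron by edgeR. Of 10 other cullins and their partners, CUL7 rose in 5 lines (0.96 ± 0.17, adjusted p = 2.4e-04, in S7A by edgeR), DDB1, the adaptor of CUL4, rose in 5 (0.45 ± 0.10, adjusted p = 0.0016, in S2A) and CUL1 fell in 4 (-0.59 ± 0.10, adjusted p = 5.9e-05, in S5A). At most 3 of the 10 moved in either direction in any line.

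A list of other CUL2 receptors, which also holds ELOA, the gene of elongin A, had 12 tested genes. Whether each of them acts with CUL2 was not tested. Of the 12, 3 fell and 1 rose in Degron and S7A, 2 fell and 2 rose in Y1F and 1 rose in S2A and T4V. In S5A 5 rose and 1 fell, and in WT 0 were called. ZER1, which reads N-terminal glycine, rose in 4 lines (0.81 ± 0.17, adjusted p = 6.1e-04, in Y1F by edgeR) and PRAME, a tumour antigen, fell in 4 (-0.82 ± 0.11, adjusted p = 3.7e-06, in S5A). Of 16 receptors of CUL5, which use the same elongins, 5 fell in Degron and S5A, 4 in Y1F, 3 in S2A and S7A and 1 in T4V, while 2 rose in Degron, Y1F and T4V, 4 in S2A and S5A and 5 in S7A. SOCS2, a brake on cytokine signals, fell in 5 lines (-1.88 ± 0.14, adjusted p = 1.5e-09, in Degron by edgeR) and SPSB4 in 5 (-1.22 ± 0.24, adjusted p = 2.4e-04, in S5A). SOCS7 rose in 6 (1.06 ± 0.09, adjusted p = 4.2e-09, in S5A by edgeR) and SPSB3 in 6 (2.63 ± 0.56, adjusted p = 5.3e-04, in S5A). SPSB3 was at low levels, 2.46 CPM on average in treated and 0.388 CPM in untreated S5A cells.

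Among 12 tested hydroxylases and partners of HIF, 7 fell and 1 rose in Degron, 4 fell and 2 rose in Y1F and S2A, 2 fell in T4V, 5 fell and 2 rose in S5A and 1 fell and 1 rose in S7A. ARNT, the beta subunit that pairs with both HIF proteins, fell in 6 lines, -0.67 ± 0.08 (adjusted p = 5.9e-07) in Degron and -0.22 ± 0.08 (adjusted p = 0.043) in T4V by edgeR. EGLN2, a prolyl hydroxylase that marks HIF for VHL, fell in 5 lines, -1.70 ± 0.23 (adjusted p = 3.9e-06) in S5A, with 1.97 CPM on average in treated and 6.40 CPM in untreated S5A cells. P4HTM, a membrane-bound relative, rose in 4 lines at under 1 CPM in each, 4.26 ± 0.98 (adjusted p = 0.0013) in Degron by edgeR. Of 20 HIF target genes, 11 fell and 1 rose in Degron, 5 fell and 6 rose in Y1F, 3 fell and 6 rose in S2A, 2 fell and 1 rose in T4V, 6 fell and 4 rose in S5A, 7 fell and 2 rose in S7A and 2 fell in WT. HK2, the hexokinase of glycolysis, fell in 6 lines (-1.32 ± 0.11, adjusted p = 4.5e-09, in S5A by edgeR) and PDK1, which shuts pyruvate out of mitochondria, in 5 (-0.91 ± 0.22, adjusted p = 0.0029, in S2A). PGK1, a glycolytic kinase, rose in 5 (0.41 ± 0.07, adjusted p = 4.0e-05, in Degron by edgeR) and the demethylase KDM3A in 4 (0.61 ± 0.09, adjusted p = 3.7e-05, in T4V).

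Of 14 tested relatives of FKBP1A, 4 rose and 1 fell in Degron, 2 rose and 2 fell in Y1F, 2 fell in S2A, 1 rose and 2 fell in T4V, 3 rose and 3 fell in S5A, 2 rose and 1 fell in S7A and 1 fell in WT. FKBP4, an HSP90 co-chaperone, fell in 5 lines (-0.92 ± 0.09, adjusted p = 4.2e-08, in S5A and -0.33 ± 0.09, adjusted p = 0.032, in WT by edgeR). FKBP15 rose in 5 (0.52 ± 0.10, adjusted p = 1.3e-04, in Degron by edgeR). SDCBP2, the gene next to FKBP1A, rose in 5 (1.80 ± 0.27, adjusted p = 1.2e-05, in S5A by edgeR), and BRK1, next to VHL, rose in 4 (0.43 ± 0.09, adjusted p = 7.2e-04, in S5A), opposite in direction to VHL with TMM scaling.

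Untreated lines were set against Mock to describe the cells before treatment. EPAS1 and HIF1A were lower and VHL and RBX1 higher in all 7 lines, and ELOC was lower in 6. EPAS1 had 14.1 and 12.2 TPM in untreated S2A cells and 47.5 and 49.3 TPM in untreated WT cells, against 161 and 157 TPM in Mock. By edgeR its log2 fold change was -3.97 ± 0.12 (adjusted p = 1.1e-17) in S2A and -2.16 ± 0.10 (adjusted p = 6.4e-14) in WT, the ends of the range over the 7 lines. HIF1A had 59.5 and 74.1 TPM in untreated Degron cells, against 246 and 215 TPM in Mock, at -2.19 ± 0.21 (adjusted p = 7.4e-09) by edgeR, and at the other end stood S7A, at -1.62 ± 0.21 (adjusted p = 5.7e-07). VHL went the other way, with its lowest value, 0.80 ± 0.08 (adjusted p = 1.6e-08), in WT and its highest, 1.59 ± 0.08 (adjusted p = 1.9e-13), in S2A by edgeR, which are 1.75 and 3.02 times the Mock level.

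The log2 fold change of RBX1 ran from 0.30 ± 0.13 in S2A to 0.72 ± 0.13 in T4V (adjusted p = 3.8e-05 to 0.043 by edgeR), and the S2A call was lost without any 1 of its 4 libraries (0.19 to 0.37, adjusted p = 0.051 to 0.31). That of ELOC ran from -0.81 ± 0.13 in S2A to -0.45 ± 0.13 in T4V where called, and missed in S5A, at -0.24 ± 0.13 (adjusted p = 0.11) by edgeR. CUL2 was called lower by edgeR in Degron, and by DESeq2 in Degron and S7A, and had a negative sign in all 7 lines. In Degron it was at -0.53 ± 0.16 (adjusted p = 0.0069) by edgeR, a call lost without Mock replicate 1 (-0.45, adjusted p = 0.078) or untreated Degron replicate 1 (-0.39, adjusted p = 0.10). FKBP1A was lower in S5A, at -0.32 ± 0.09 (adjusted p = 0.0027) by edgeR, and in S2A, at -0.26 ± 0.09 (adjusted p = 0.012). The S5A call was lost without untreated S5A replicate 2 (-0.25, adjusted p = 0.058 by edgeR) and the S2A call without Mock replicate 2 (-0.26, adjusted p = 0.051) or untreated S2A replicate 1 (-0.25, adjusted p = 0.070). ELOB was called in 0 of 7 lines by edgeR, with no unadjusted p under 0.05 and no call by DESeq2. In all, 6 of 8 members were called in Degron (64.8% of all genes) and S2A (64.1%) and 5 of 8 in WT (63.6%), Y1F (62.9%), T4V (63%), S5A (63.4%) and S7A (63.5%). With mitochondrial scaling, which moved the median of all genes by 0.57 to 0.89, EPAS1 and HIF1A stayed lower and VHL and RBX1 higher in all 7 lines. An upward shift could not turn VHL and RBX1, which were already higher. The sign turned for CUL2 in 7 lines, for ELOC and FKBP1A in 5 each and for ELOB in 3. Since the markers of the 7 lines went against the label that they share with Mock, a difference of cell line and an effect of the degron cannot be told apart here, and all 7 comparisons share the same 2 Mock libraries.

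**Figure D5:**
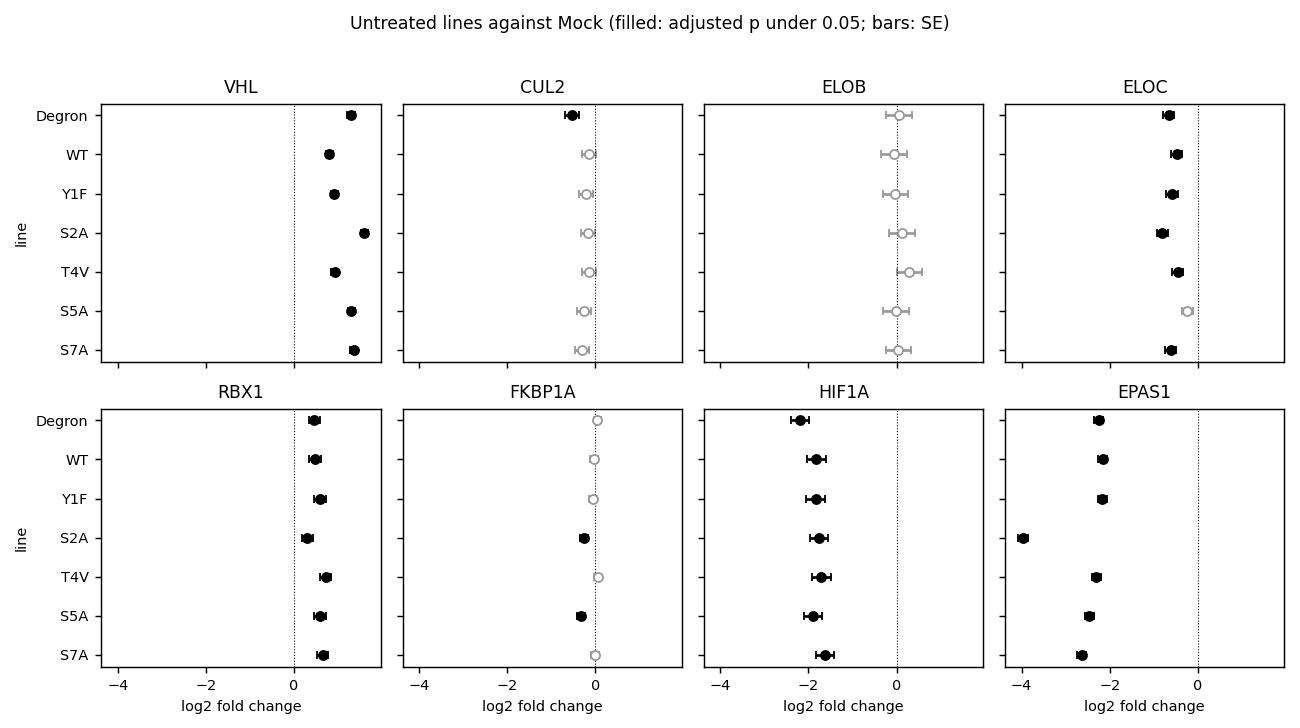
Log2 fold change of each gene, untreated line against Mock (x axis), in the 7 lines (y axis), from edgeR with TMM scaling; points are estimates, bars 1 SE, filled points passed an adjusted p of 0.05. EPAS1 lies between -3.97 and -2.16 and VHL between 0.80 and 1.59.

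Patterns across libraries are given as descriptions, since the libraries share lines and treatments. Over the 28 libraries of the lines, on log2 CPM, VHL and EPAS1 ran against each other (r = -0.78) and ELOC with RBX1 (r = 0.68), while VHL was near unrelated to its partners CUL2 (0.13) and ELOC (-0.04). Of the 11504 genes averaging 5 CPM or more, those most like VHL over all 30 libraries were PBRM1, PSMD6 and ZNF620 (r = 0.91 each), and over the 28 without Mock SLC25A26, CRBN and PSMD6 (0.92, 0.91 and 0.90). For HIF1A they were USP8, ZFAND5 and EIF2S1 (0.97, 0.96 and 0.95), and for EPAS1 P3H2, SERPINE2 and RGS20 (0.94, 0.92 and 0.92). Without Mock those most like EPAS1 were DLL1, SSBP3 and the HIF hydroxylase gene EGLN3 (0.91, 0.89 and 0.89). For CUL2 they were ZC3H15, ERBIN and IREB2 (0.93, 0.92 and 0.92), for ELOB RPS21, SERF2 and RPL35 (0.93, 0.92 and 0.89), for RBX1 SNU13, SUMO3 and HDHD5 (0.90, 0.89 and 0.87), for ELOC PDGFRL, PTK2 and MRPS28 (0.90, 0.88 and 0.88), and those for FKBP1A included GUSB and RPL13A (0.83 and 0.79).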

How the data were processed

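Poly(A) RNA was read from both ends at 150 bp, with 10% of fly S2 cells added, per the labels' protocols. The deposited counts are whole reads per gene, and the submitters' processing notes name hg38 and dm6, featureCounts 2.0.1, STAR 2.7.3a and Trim Galore 0.6.2 for the authors' steps. Not given in the sources used here are the annotation release, the use of strand and what was done with multi-mapped reads. TPM values were deposited beside the counts and summed to 998366 to 999347 per library. The authors also deposited, per line, a DESeq2 table (version 1.24.0 per the submitters' processing notes) with a p-value, a log2 fold change and a base mean, a signal that averages counts after scaling. The scaling factors were solved from the base means.

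Counts were tested with edgeR 4.0.16 in R 4.3.3 (robust quasi-likelihood, TMM factors, 1 coefficient per group over all 30 libraries, 15 residual degrees of freedom, common dispersion 0.0122). filterByExpr (minimum count 10, total 15) kept 19982 genes and left out 41596. Benjamini-Hochberg adjustment ran within each of 20 comparisons, a call is an adjusted p under 0.05, and "rose" and "fell" mean called. Each standard error was derived from the F statistic. Levels carry SD over n = 2 libraries. Simulated counts with known changes served to check the test. No 2 libraries of a group were alike within sampling noise (chi-square over degrees of freedom 1.26 to 24.7). Coordinates are from GENCODE release 29, which matched 56659 of 61578 gene IDs. Reads of near copies of a member may be split between them, so members with copies are uncertain to that extent.

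The members, the 17 gene lists and the tests were chosen with earlier results of these data known. All 8 members are named, with, from each other list, up to 2 genes risen and 2 fallen in at least 4 of 7 lines with the largest mean change, and the 3 genes most alike by Pearson's r on log2 CPM (prior count 1). Not all genes this rule gives are printed. Alternatives were DESeq2 1.42.0, scaling by 13 mitochondrial mRNAs, the authors' factors, no low-count filter, a mean of at least 5 CPM, a fit on the 4 libraries of a line, leaving out single libraries and blocking on replicate number. Chosen after seeing the data were a fit and a likeness without Mock, and a GC correction over genes averaging 1 CPM or more. Figures were drawn with matplotlib 3.10.9 and tables made with pandas 2.3.3 on Python 3.11.15.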

Additional observations from a re-analysis of the deposited data

Results flagged for a closer look

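The change with treatment differed from that of the WT line for 3 values, each by a test of the difference itself in edgeR. The change of VHL in Y1F minus that in WT was -0.43 ± 0.11 (adjusted p = 0.021), that of EPAS1 in Y1F minus WT was 0.53 ± 0.14 (adjusted p = 0.023), and that of EPAS1 in S2A minus WT was 0.73 ± 0.15 (adjusted p = 0.0046), each in edgeR's test with 2 libraries per group. With mitochondrial scaling neither difference in EPAS1 passed, at 0.45 (adjusted p = 0.16) in S2A and 0.39 (adjusted p = 0.26) in Y1F by edgeR. Without a low-count filter neither Y1F difference passed. Of all genes, 9.73% were called in Y1F minus WT and 7.53% in S2A minus WT. With 1 library left out at a time, the Y1F values were -0.50 to -0.37 for VHL and 0.44 to 0.62 for EPAS1. The S2A value of EPAS1 was 0.62 to 0.85. Both Y1F calls were lost without most of the single libraries, as given above, and the S2A call was kept. In the authors' deposited tables EPAS1 changed by -0.33 in Y1F, -0.20 in WT and 0.22 in S2A. The Y1F value there lay below that of WT, and these differences were not tested. Groups of 2 libraries cannot be screened for a single library far from the others.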

How the results depend on the processing

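Changes with treatment were refitted under each alternative. Their differences were refitted under all but the authors' factors and the fits on a line's own 4 libraries. The cause of a change was not tested. VHL kept its negative sign with treatment in all 7 lines under every alternative run. Under the authors' factors and mitochondrial scaling it could not have turned, since both moved every line downward. The share of all genes called under the same setting follows each count of members in brackets. The number of members called with mitochondrial scaling came to 5 in Y1F (50%), 5 in S7A (47.5%), 5 in Degron (52.3%), 7 in S5A (67.5%), 5 in T4V (52.4%), 2 in WT (11.5%), 1 in Y1F minus WT (7.6%), 4 in S5A minus WT (36.7%), 0 in S2A minus WT (11.2%), 1 in WT minus Degron (14.4%) and 8 in S5A against Mock (74.2%). With the authors' factors, members called numbered 7 in Y1F (68%), 8 in S7A (67.9%), 7 in Degron (67.8%) and 8 in S5A (71.3%). The number of members called without a low-count filter came to 1 in Degron (19.9%), 4 in S5A (23.2%), 1 in T4V (12.1%), 0 in Y1F minus WT (4.06%), 2 in S2A minus WT (2.68%) and 1 in T4V minus WT (2.26%). With a mean of at least 5 CPM, members called numbered 3 in S5A (52.7%) and 1 in WT minus Degron (19%). The number of members called with only a line's 4 libraries came to 0 in S7A (20.9%), 1 in Degron (38.5%), 7 in S5A (72.9%), 6 in S2A (59.2%) and 0 in T4V (16.5%). By DESeq2, members called numbered 3 in S5A (46.2%) and 1 in WT minus Degron (11.6%). The number of members called with the GC correction came to 6 in Y1F (57.7%), 5 in S7A (48.8%), 5 in Degron (58.8%), 6 in S5A (62.1%), 5 in S2A (50%), 2 in WT (19.8%), 2 in S5A minus WT (33.9%), 3 in S2A minus WT (23.1%), 2 in T4V minus WT (19%) and 3 in WT minus Degron (30.3%). Without Mock, members called numbered 3 in S5A (51.5%) and 1 in T4V (29.4%). Of all genes, with mitochondrial scaling 10689 in S2A, 10476 in T4V and 2300 in WT, and with the authors' factors 13592 in Y1F, 13562 in S7A, 13543 in Degron and 653 in WT, and with a mean of at least 5 CPM 5370 in Y1F, 4237 in S7A, 5670 in Degron, 6132 in S5A and 653 in WT, and with only a line's 4 libraries 3461 in S7A, 2648 in T4V and 50 in WT, and with the GC correction 8951 in T4V and 3966 in WT were called. Leaving out 1 library at a time, members called ranged over 0 to 4 in S7A, 1 to 2 in Degron, 1 to 2 in S5A, 0 to 1 in T4V, 0 to 2 in Y1F minus WT, 0 to 1 in S5A minus WT, 0 to 1 in T4V minus WT and 0 to 1 in WT minus Degron, and genes called over 4290 to 6737 in S7A, 3381 to 5545 in T4V and 282 to 1038 in WT.

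Signs are listed where the value was called with TMM scaling or under the alternative, and signs of values called under neither turned as well. They turned with treatment under the authors' factors for ELOC -0.84 in Degron, RBX1 -0.78 in Degron, FKBP1A -0.61 in S7A, -0.57 in Degron, -0.79 in S5A and -0.24 in S2A, HIF1A -0.66 in Y1F, -0.55 in Degron and -0.55 in S5A, ELOB -0.87 in Y1F and -0.69 in S7A, EPAS1 -0.33 in Y1F, -0.69 in S7A and -0.76 in S5A. Under mitochondrial scaling they turned for ELOC -0.47 in Degron, RBX1 -0.40 in Degron, FKBP1A -0.20 in Degron, -0.57 in S5A, -0.21 in S2A and -0.41 in T4V, CUL2 -0.48 in T4V, HIF1A -0.015 in T4V, EPAS1 -0.54 in S5A, for the difference of VHL -0.48 in S5A minus WT, and against Mock for CUL2 0.42 in Y1F, 0.50 in S7A, 0.048 in Degron, 0.64 in S5A, 0.51 in S2A, 0.62 in T4V and 0.58 in WT, ELOC 0.033 in Y1F, 0.18 in S7A, 0.66 in S5A, 0.31 in T4V and 0.25 in WT, FKBP1A 0.56 in Y1F, 0.79 in S7A, 0.57 in S5A, 0.40 in S2A and 0.69 in WT, ELOB 0.88 in S5A. With the GC correction the sign turned for HIF1A 0.21 in S7A.

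Replicate numbers are shared between groups, but the labels do not say what they mark. Deviations of same-numbered libraries correlated at 0.20 in S7A, 0.03 in S2A, 0.01 in S5A, -0.02 in T4V, -0.12 in WT, -0.12 in Y1F and -0.25 in Degron. With the number as a replicate block, 0 members were called in T4V (VHL -0.22, adjusted p = 0.058, and HIF1A 0.56, adjusted p = 0.052, by edgeR), and no other call of a member changed. ELOB, with the widest standard errors, is the member most limited by the spread between libraries.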
